A study of Mus musculus with 8 samples.

Results

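PERK knockdown was profiled in C2C12 cells, a mouse skeletal myoblast line, before differentiation was induced (day 0). The study grew such cells to confluence in growth medium before the switch to differentiation medium. Its methods and the sample titles do not say whether the day 0 cultures were still proliferating. The data are the reads counted on mature miRNAs in 1 library of cells with a hairpin RNA against Perk (shPerk) and 1 library of cells with a negative control hairpin (shNC). Members were all miRNAs that reached 1 CPM, a read count scaled to the library total, in either library or both, and 602 of the 1978 listed miRNAs met this rule. At its edge, miR-12182-3p, miR-200b-3p and miR-218-1-3p passed with 9 reads in shPerk cells (1.02 CPM). miR-1930-3p, miR-3076-3p and miR-3103-3p stayed out with 11 reads in shNC cells (0.972 CPM). The 1376 miRNAs left out held 0.0131% of the shNC reads and 0.00923% of the shPerk reads, and 829 of them had no read in either library.

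The series holds 8 small RNA libraries, 1 for each condition: shNC and shPerk C2C12 cells at day 0 and at day 3 of differentiation, C2C12 cells with a vector or with ATF4, and P19 cells with shNC or shPerk. The C2C12 hairpin cells were stable lines made with lentivirus and selected with puromycin, and no source used here gives a count of clones. Perk mRNA is not read by a small RNA library, so the knockdown was not checked in these data. The day 0 totals were 11321915 reads for shNC and 8800977 for shPerk, and miR-21a-5p alone took 26.2% and 22.1% of them. With 1 library a side there is no replicate spread, so a difference here is a difference between 2 libraries. Each 95% interval is a Clopper-Pearson interval of the read ratio and covers counting error only.

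PERK, encoded by Eif2ak3, is a kinase of the endoplasmic reticulum membrane and a sensor of the unfolded protein response. When active it phosphorylates the translation factor eIF2α, which lowers general protein synthesis while the mRNA of the transcription factor ATF4 is still translated. A mature miRNA is cut from either arm (5p or 3p) of a hairpin transcript and pairs with mRNAs mainly through its seed, bases 2 to 8, so miRNAs with the same seed can share targets. Hairpins often lie in clusters that are transcribed together. In skeletal muscle the miR-1, miR-133 and miR-206 families are the classic myomiRs, which are induced as myoblasts differentiate.

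The hairpin against Perk carries the stem below, which is shown since it defines the knockdown. Its 21 bases match the coding sequence of Eif2ak3 in exon 16 of 17, at chr6:70901435-70901455 on the plus strand of GRCm38, bases 3323 to 3343 of the 4513 bases of its transcript (GENCODE).
shPerk stem: CCTCTACTGTTCACTCAGAAA

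Mature sequences were taken from RefSeq (GRCm38.p6), which matched 82.6% of the 602 miRNAs (105 had no entry), and the seed is in capitals in each line. The first set is from the miRNAs with the largest differences, and is shown to make plain that the X-linked cluster described below holds many different seeds. Among those printed, only miR-743a-3p and miR-743b-3p share one. Members not printed share seeds as well, such as miR-883a-3p with miR-883b-3p.
miR-142a-3p: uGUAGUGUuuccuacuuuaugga
miR-142a-5p: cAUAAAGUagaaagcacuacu
miR-743a-3p: gAAAGACAccaagcugaguaga
miR-743b-3p: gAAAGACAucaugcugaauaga
miR-741-3p: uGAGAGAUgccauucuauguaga
miR-465c-3p: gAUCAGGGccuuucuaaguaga
miR-470-5p: uUCUUGGAcuggcacuggugagu
miR-871-3p: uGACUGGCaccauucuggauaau
miR-881-3p: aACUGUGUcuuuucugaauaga
miR-9-5p: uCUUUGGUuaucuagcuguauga
miR-218-5p: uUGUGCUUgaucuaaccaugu

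The second set holds miRNAs that were lower in shPerk cells, from muscle, from the H19 transcript and from a cluster in an intron of Clcn5. It is shown since miR-501-3p and miR-500-3p of that cluster share a seed, while their neighbours miR-501-5p, miR-362-5p and miR-188-5p have seeds that look alike but are not the same. The seed of miR-362-5p is shared by miR-500-5p of the cluster, which is not printed. miR-383-5p and miR-532-5p are named without a sequence.
miR-206-3p: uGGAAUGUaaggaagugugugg
miR-133b-3p: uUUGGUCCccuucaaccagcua
miR-128-3p: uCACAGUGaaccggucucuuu
miR-675-5p: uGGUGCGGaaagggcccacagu
miR-129-5p: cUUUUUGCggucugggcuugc
miR-501-3p: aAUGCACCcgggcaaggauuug
miR-500-3p: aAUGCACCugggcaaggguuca
miR-501-5p: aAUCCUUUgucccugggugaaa
miR-362-5p: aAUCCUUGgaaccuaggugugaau
miR-188-5p: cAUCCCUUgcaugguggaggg

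The third set holds families of 1 seed whose members did not change alike, which is why they are set side by side.
miR-195a-5p: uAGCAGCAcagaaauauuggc
miR-497a-5p: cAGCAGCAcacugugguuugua
miR-16-5p: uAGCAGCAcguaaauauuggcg
miR-15b-5p: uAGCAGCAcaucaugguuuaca
miR-148a-3p: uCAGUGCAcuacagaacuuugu
miR-152-3p: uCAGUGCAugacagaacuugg
miR-148b-3p: uCAGUGCAucacagaacuuugu
miR-34a-5p: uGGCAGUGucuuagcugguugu
miR-34b-5p: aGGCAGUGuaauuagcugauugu
miR-449a-5p: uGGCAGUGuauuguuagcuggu

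Knockdown of PERK went with large shifts at day 0 in both directions. Fold changes were computed from reads scaled with TMM factors, and levels are given below as scaled CPM on those factors. To be called, a miRNA needed a change of more than 1 on the log2 scale together with an adjusted p under 0.05 (Benjamini-Hochberg) in an exact binomial test, two-sided, which sets the reads of 1 library against those of the other. By this rule 93 of the 602 miRNAs were called higher (15.4%) and 111 lower (18.4%) in shPerk cells, 33.9% in all. The fold limit alone was passed by 94 miRNAs upward (15.6%) and 122 downward (20.3%), 35.9% in all. The median log2 fold change over all 602 was -0.06, with quartiles at -0.82 and 0.67. Beyond a log2 fold change of 3, which is 8-fold, lay 37 miRNAs upward and 16 downward.

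The called miRNAs carried a small part of the library. The 93 higher miRNAs took 1.29% of the shNC reads and 4.19% of the shPerk reads, and the 111 lower miRNAs took 10.7% and 3.11%. Among the 83 miRNAs with a mean of at least 1000 scaled CPM, 10 were called higher and 11 lower (25.3%). Among the 251 miRNAs with a mean under 10 scaled CPM, 37 were called higher and 54 lower (36.3%). A filter met through only 1 library favours differences at low levels, and 50 miRNAs passed only through shNC cells and 30 only through shPerk cells. Of the 522 miRNAs that passed in both libraries, 69 were called higher and 83 lower.

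**Figure D1:**
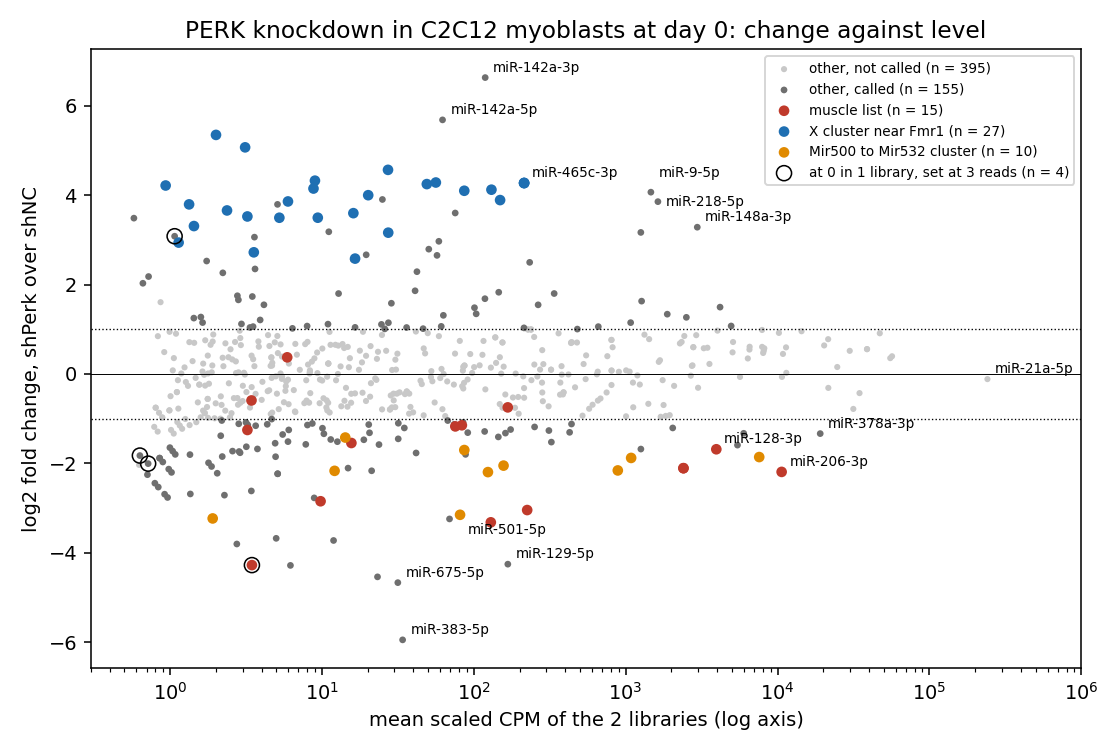
Log2 fold change of shPerk over shNC at day 0 against the mean scaled CPM of both libraries (log axis), 1 point per miRNA, with dotted lines at log2 fold changes of 1 and -1. All 27 points of the X cluster near Fmr1 lie above the upper line, 12 of 15 points of the muscle list and all 10 of the Mir500 to Mir532 cluster lie below the lower line, and the 4 circled miRNAs were at 0 in 1 library and are drawn with that library set at 3 reads.

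The muscle miRNAs were lower in PERK knockdown cells, already at day 0. Of 22 miRNAs in the list, 15 passed the filter, 12 of these were called lower and 0 higher, and the median log2 fold change was -1.68 against -0.06 over all tested. The list holds the miR-1, miR-133, miR-206, miR-208, miR-486 and miR-499 families and the miR-128 arms, which the study counts as associated with myogenesis, so its direction is not independent evidence. Summed over the list, 384221 reads in shNC cells (32402 scaled CPM) faced 65750 reads in shPerk cells (7825 scaled CPM). miR-486a-5p and miR-486b-5p, listed with equal counts, enter this sum and the 12 calls once each. In bulk RNA, fewer cells of a type and less RNA per cell cannot be told apart. The 7 members that did not pass held 1 read in shNC cells and 0 in shPerk cells.

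miR-206-3p, the myomiR already expressed in proliferating myoblasts, had 206961 reads in shNC cells and 32128 in shPerk cells. Its log2 fold change was -2.19 (95% interval -2.21 to -2.17). miR-133b-3p, which is transcribed from the same locus on chromosome 1, had 2789 and 198 reads (-3.32, -3.53 to -3.11). All 4 mature miRNAs of this locus, between positions 20679010 and 20682887, were called lower. miR-133a-3p, from other loci but nearly the same in sequence as miR-133b-3p, had 4750 and 408 reads (-3.04, -3.19 to -2.90). How the authors divided reads shared by such close relatives is not given in the sources used here.

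miR-1a-3p, the myomiR most tied to terminal differentiation, went down by less than the fold limit. It had 2487 reads in shNC cells and 1050 in shPerk cells (-0.75, -0.85 to -0.64) and was not called. miR-499-5p, encoded in a slow myosin gene, had 61 and 56 reads and was not called. At day 3 the 2 miRNAs had more reads in the control library: miR-1a-3p had 207393 reads in shNC cells and 30759 in shPerk cells, and miR-499-5p had 710 and 336. For miR-1a-3p the log2 fold change of the knockdown was 1.33 lower at day 3 than at day 0 (95% interval of the difference -1.43 to -1.22).

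miR-128-3p, a miRNA made from hairpins in introns of R3hdm1 on chromosome 1 and of Arpp21 on chromosome 9, had 71475 reads in shNC cells and 15760 in shPerk cells. Its log2 fold change was -1.68 (-1.71 to -1.66). The 5p arms name the hairpin, since they differ between the loci. miR-128-2-5p, from the hairpin in Arpp21, had 82 reads in shNC cells and 0 in shPerk cells, which is at least 19.4-fold lower with the shPerk library set at 3 reads. miR-128-1-5p, from R3hdm1, had 49 and 23 reads, and its log2 fold change of -0.59 (-1.38 to 0.15) was not called. miR-486a-5p and miR-486b-5p, made from opposite strands of an intron of Ank1, were listed with the same 46214 and 7599 reads and were called lower (-2.11, -2.14 to -2.07).

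**Figure D2:**
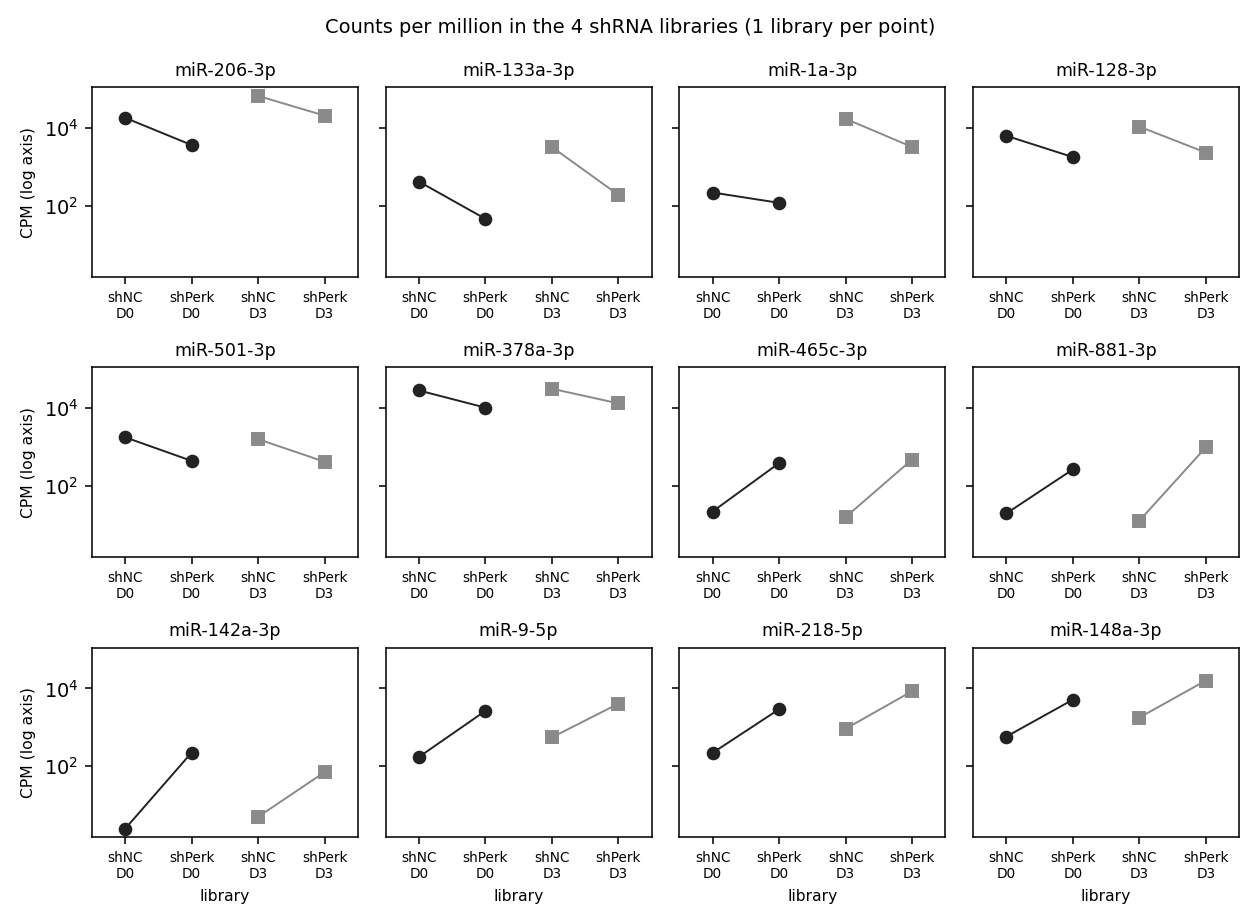
CPM of the library total (log axis) for 12 miRNAs in the 4 shRNA libraries of C2C12 cells, with black circles for day 0, grey squares for day 3 and a line joining the shNC and the shPerk library of each day. miR-206-3p, miR-133a-3p, miR-1a-3p, miR-128-3p, miR-501-3p and miR-378a-3p lie lower in shPerk cells on both days, and the other 6 miRNAs lie higher.

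The miRNAs of the X-linked cluster near Fmr1 were higher in PERK knockdown cells. This fast-evolving cluster is known mainly for expression in testis. The filter left 27 of 40 listed miRNAs, each of the 27 was called higher, and they had a median of 4.0 on the log2 scale (3.89 with counts under 3 set at 3 reads). Of these, 13 passed only through the shPerk library, so they had to differ, and the 14 that passed in both libraries were called higher as well. The 13 members that did not pass held 5 reads in shNC cells and 18 in shPerk cells. Over the whole list the sum was 1677 reads in shNC cells and 20331 in shPerk cells. The 3p arms of miR-465a, miR-465b and miR-465c, listed with equal counts, enter this sum and these calls once each.

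The main block of the cluster runs from Mir743 to Mir465 at chrX:66776757-66839125 on the minus strand of GRCm38.p6 and holds 17 hairpins with a miRNA that passed. The 3p arms of miR-465a, miR-465b and miR-465c were listed with the same 250 reads in shNC cells and 3425 in shPerk cells (log2 fold change 4.27, 4.09 to 4.46). They have the same seed, and their counts cannot be told apart. miR-881-3p stood at 18.8 and 279 scaled CPM (3.89, 3.69 to 4.10), and miR-871-3p had 113 and 1374 reads (4.10, 3.82 to 4.39). miR-741-3p had 65 and 899 reads (4.28, 3.92 to 4.67).

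miR-743b-3p had 26 reads in shNC cells and 439 in shPerk cells (4.57, 4.0 to 5.21). miR-470-5p, which has been linked to differentiation of embryonic stem cells, had 58 and 783 reads (4.25, 3.87 to 4.66). miR-465c-5p had 168 and 2076 reads (4.12, 3.90 to 4.36). So every member named here was present in control myoblasts, at a low level, and was over 10-fold higher with the hairpin against Perk. Of the other arms, 2 passed only through the shPerk library and so had to differ: miR-741-5p had 1 and 33 reads (95% interval of the log2 ratio 2.96 to 10.89) and miR-743b-5p had 2 and 51 reads (3.24 to 8.25). miR-547-3p, which lies outside the block at chrX:67988374-67988451, had 56 and 238 reads and the smallest difference of the list (2.58, 2.16 to 3.03).

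Not every X-linked cluster moved in this direction. The cluster from Mir322 to Mir450b, whose members restrain the cell cycle and are known to increase in differentiating muscle, had 12 members that passed, of which 0 were called. Its median log2 fold change was -0.43, and miR-503-5p had 4590 and 1970 reads (-0.72, -0.80 to -0.65). At day 3 the same 12 members had a median of -1.34, and 8 were called lower.

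A different X-linked cluster was lower throughout. The hairpins from Mir500 to Mir532 lie in an intron of the chloride transporter gene Clcn5 at chrX:7237683-7248497, on the minus strand like their host. All 10 mature miRNAs of this block that passed were called lower. Their median was -2.10 on the log2 scale, and 9 of the 10 passed in both libraries. The miRNA with the most reads, miR-532-5p, had 140777 reads in shNC cells and 27509 in shPerk cells (-1.86, -1.88 to -1.84). miR-501-3p had 20251 and 3904 reads (-1.88, -1.93 to -1.83), and miR-501-5p, its other arm, had 1730 and 138 reads (-3.15, -3.41 to -2.90). The arms of this hairpin thus differed in the size of their decrease by more than their counting intervals.

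miR-362-5p had 17191 reads in shNC cells and 2730 in shPerk cells (-2.16, -2.22 to -2.10). miR-188-5p had 2411 and 373 reads (-2.20, -2.36 to -2.04), and its other arm miR-188-3p had 41 and 3 reads. The smallest decrease in the block was that of miR-500-3p, with 246 and 65 reads (-1.42, -1.84 to -1.02). Pooled by seed, miR-501-3p and miR-500-3p together went from 1729 to 472 scaled CPM. The miRNAs of this block were grouped after their values had been seen, as a cluster of hairpins within 10 kb.

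The largest increases at a mean of at least 10 scaled CPM were those of both arms of miR-142a, a miRNA typical of blood cells. miR-142a-3p had 28 reads in shNC cells and 1977 in shPerk cells (log2 fold change 6.63, 6.10 to 7.23). miR-142a-5p had 28 and 1026 reads (5.68, 5.15 to 6.29). Its hairpin lies in an intron of the noncoding gene Mir142hg at chr11:87756864-87756927 on the plus strand. At day 3 miR-142a-3p was called higher in shPerk cells too, at 4.46 and 79.2 scaled CPM.

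The other miRNAs of blood cells did not stand out with it. Of 6 markers, 3 passed, and miR-451a, which is typical of red cells, had 71 and 80 reads (0.67, 0.19 to 1.15) and was not called. miR-223-3p, typical of myeloid cells, had 0 reads in both libraries, miR-144-3p had 3 in both, and miR-150-5p of lymphocytes had 6 and 7. The summed level of the list went from 11.5 scaled CPM in shNC cells to 368 in shPerk cells, nearly all of it miR-142a. Of the endothelial markers, 2 of 2 passed and 0 were called, and their sum was 82.9 and 92.8 scaled CPM. Of the liver markers, 2 of 2 passed and 0 were called, at a sum of 2327 and 1201 reads. Of the epithelial markers, 3 of 6 passed and 1 was called higher, at a sum of 4.89 and 7.26 scaled CPM. The part of other cells in these differences was not tested.

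Of the myoblast markers, miR-206-3p, miR-133a-3p, miR-133b-3p and miR-1a-3p all passed in both libraries, and 3 of the 4 were called lower. Their sum went from 18299 to 4020 scaled CPM, so the defining myoblast miRNAs were still present with the hairpin against Perk.

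miR-146a-5p and miR-146b-5p, which damp inflammatory signalling, share a seed and were both higher. They were picked out after their values had been seen, like miR-155, miR-218, miR-9-3p and miR-344d below. miR-146b-5p had 2989 reads in shNC cells and 19027 in shPerk cells (3.17, 3.11 to 3.22), and miR-146a-5p had 63 and 284 (2.67, 2.27 to 3.09). Pooled, the seed went from 257 to 2298 scaled CPM. miR-155-5p, another miRNA induced by inflammation, had 3558 and 2205 reads (-0.19, -0.27 to -0.12) and was not called.

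Other miRNAs with large increases had more reads. miR-9-5p, a neural miRNA, had 1956 reads in shNC cells and 23241 in shPerk cells (4.07, 4.0 to 4.13), and miR-9-3p stood at 11.5 and 139 scaled CPM (3.60, 3.35 to 3.87). Of the 4 neuronal markers 2 passed: beside miR-9-5p this was miR-153-3p, with 92 and 91 reads, not called. miR-124-3p and miR-137-3p, which define neurons, had 0 reads in both libraries. miR-218-5p, from hairpins in introns of Slit2 and Slit3, had 2498 and 25625 reads (3.86, 3.80 to 3.92). miR-344d-3p had 832 and 3330 reads (2.50, 2.39 to 2.61).

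The miR-148 and miR-152 family has 1 seed in its 3p arms, and its members did not move together. miR-148a-3p had 6538 reads in shNC cells and 45125 in shPerk cells (3.28, 3.25 to 3.32), and its other arm miR-148a-5p had 37 and 394 (3.90, 3.42 to 4.44). miR-152-3p had 11100 and 14471 reads (0.88, 0.84 to 0.92), and miR-148b-3p had 16652 and 7041 (-0.74, -0.79 to -0.70). Of 6 members that passed, 2 were called higher, and the median was 0.52. The pooled seed went from 2892 to 7930 scaled CPM, a log2 change of 1.46, and its main member changed from miR-148b-3p to miR-148a-3p.

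The same held in the group of miR-15, miR-16, miR-195 and miR-497, which restrains cell cycle genes. Its median log2 fold change over 11 members was -0.05, yet 3 were called higher and 1 lower. The 3 are those of 1 locus on chromosome 11: miR-195a-5p had 158 and 877 reads (2.97, 2.72 to 3.22), miR-195a-3p stood at 12.7 and 88.3 scaled CPM (2.79, 2.54 to 3.06), and miR-497a-5p had 186 and 830 (2.65, 2.42 to 2.89). miR-16-5p, with far more reads, had 21753 and 14010 (-0.14, -0.17 to -0.11), and miR-15b-5p had 2555 and 1745 (-0.05, -0.14 to 0.04). The seed pool, to which miR-322-5p also belongs, therefore hardly moved, at 2437 scaled CPM in shNC cells and 2341 in shPerk cells. The 1 called lower was miR-497b, with 92 and 18 reads (-1.85, -2.67 to -1.12). It does not have the seed of this pool, in which 2 members were called higher and 0 lower.

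The miR-34 and miR-449 family, of which miR-34 is known as a target of p53, had 7 members that passed. Their median log2 fold change was 1.55, and 6 were called higher. This was not seen at day 3, where 0 were called higher and 2 lower. All 4 miRNAs of the Mir34b and Mir34c locus on chromosome 9 were among the 6 called higher at day 0. miR-34c-5p had 12627 reads in shNC cells and 22622 in shPerk cells (1.34, 1.31 to 1.37), and miR-34b-3p had 1789 and 4415 (1.80, 1.72 to 1.88). miR-449a-5p had 55 and 231 reads (2.56, 2.14 to 3.02). miR-34a-5p shares the seed of miR-34b-5p and miR-449a-5p but comes from its own gene on chromosome 4. It had 2781 and 1167 reads and lay on the other side of 0 (-0.76, -0.86 to -0.66).

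**Figure D3:**
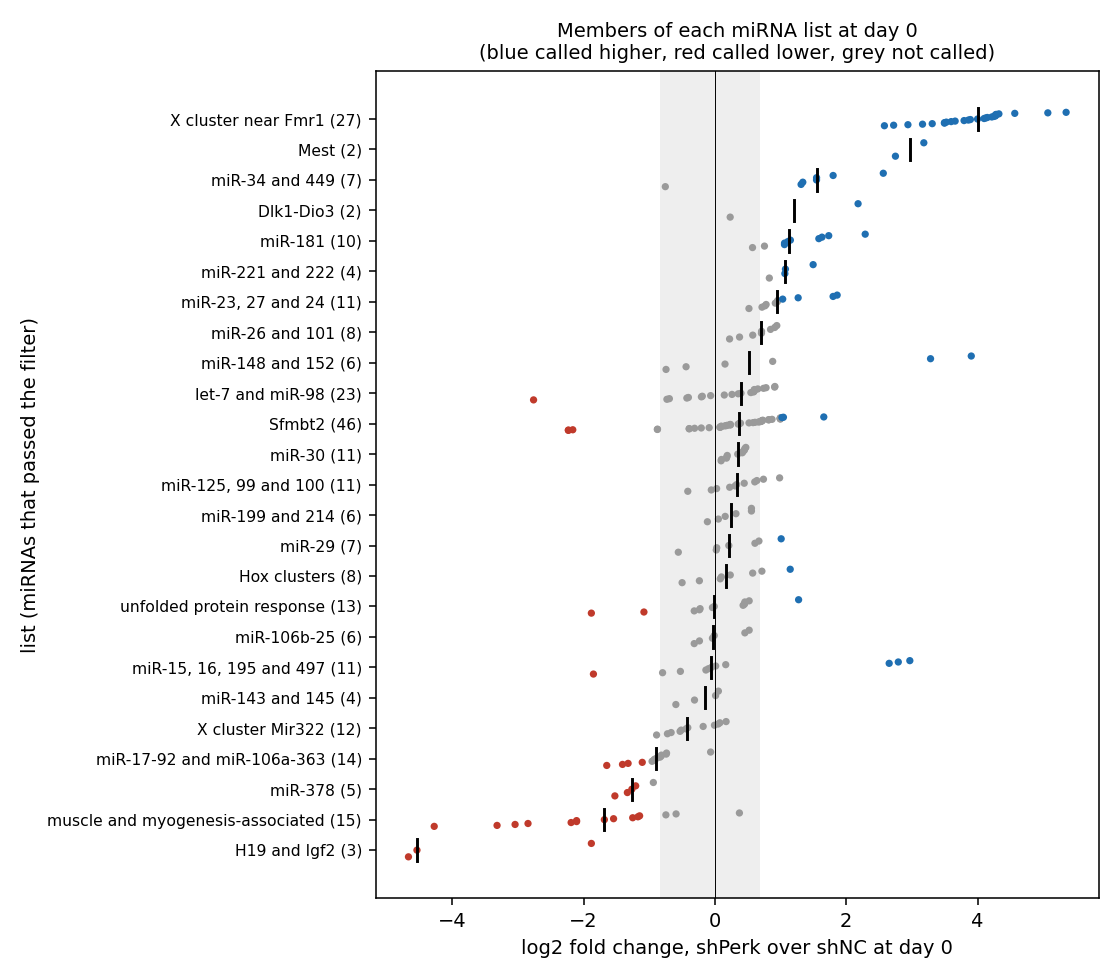
Log2 fold change of shPerk over shNC at day 0 for each miRNA that passed the filter in each list other than the cell type markers, with counts of 0 set at 3 reads, a black bar at the list's median, a grey band between the quartiles of all 602 miRNAs and the number that passed in brackets. The X cluster near Fmr1 (median 4.0) and H19 and Igf2 (-4.54) lie at the ends of the lists plotted, and the lists of miR-15 and miR-16 and of miR-148 and miR-152 hold members far apart.

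Among the other lists with higher members, the miR-181 family had 8 of 10 called, with a median of 1.13. miR-181a-5p had 7373 reads in shNC cells and 16171 in shPerk cells (1.63, 1.59 to 1.67), and the seed pool of the 4 main arms went from 1734 to 4346 scaled CPM. miR-221 and miR-222, which hold myoblasts in the cell cycle, had 3 of 4 called higher. miR-222-3p had 25967 and 51889 reads (1.5, 1.47 to 1.52) and miR-221-3p had 37796 and 56383 (1.07, 1.06 to 1.09). With library totals in place of TMM factors only 1 of these 4, and 5 of the 10 of the miR-181 family, stayed called. In the list of miR-23, miR-27 and miR-24, 4 of 11 were called higher at a median of 0.95, and miR-23b-3p had 17466 and 29795 reads (1.27, 1.24 to 1.29).

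In the proliferation clusters miR-17-92 and miR-106a-363, 14 members passed, 4 were called lower, 10 were not called and the median was -0.90. Of the 14, 1 passed only through shNC cells and so had to differ. Among the 13 that passed in both libraries, 3 were called lower. All 14 had a log2 fold change below 0, and 2 had the whole interval beyond the fold limit. miR-18a-5p lay at -1.41 (-1.53 to -1.28), and miR-19a-3p had 2736 and 775 (-1.32, -1.44 to -1.21). miR-92a-3p, which both clusters encode, had 68643 and 46470 (-0.07, -0.08 to -0.05). With library totals 8 of the 14 were called. The difference from other clusters was not tested. In miR-106b-25, hosted by Mcm7, 6 members passed, 0 were called and the median was -0.02, with miR-25-3p at 32240 and 22251 reads (-0.04, -0.06 to -0.01).

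The miR-378 family, hosted in part by the metabolic coactivator gene Ppargc1b and increased in muscle differentiation, had 4 of 5 members called lower at a median of -1.27. miR-378a-3p had 324229 reads in shNC cells and 91155 in shPerk cells (-1.33, -1.34 to -1.32), the largest loss of reads of any called miRNA. Close sequence within the family means that its members may share reads. The cluster of miR-183, miR-96 and miR-182 on chromosome 6, known from sensory organs, had 4 of 6 members called lower, and was picked out after its values had been seen. miR-182-5p had 101488 and 28665 reads (-1.33, -1.35 to -1.31), miR-183-5p had 96982 and 22809 (-1.59, -1.61 to -1.57), and miR-96-5p had 22756 and 5034 (-1.68, -1.72 to -1.64).

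Among imprinted loci, the miRNAs of H19 had the clearest decrease. miR-675-5p, cut from an exon of the H19 noncoding RNA at chr7:142577064-142577147, had 721 reads in shNC cells and 20 in shPerk cells (-4.67, -5.39 to -4.04). miR-675-3p had 528 and 16 reads (-4.54, -5.37 to -3.83). miR-483-3p of the neighbouring gene Igf2 had 16 and 3 reads. All 3 members that passed were called lower, at a median of -4.54, and miR-483-3p passed only through shNC cells. Both arms of miR-335, in an intron of Mest, went the other way: miR-335-3p had 26 and 168 reads (3.18, 2.59 to 3.84) and miR-335-5p, which passed only through shPerk cells, had 11 and 53 (2.75, 1.81 to 3.85).

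The large imprinted Dlk1-Dio3 region was nearly silent. Of its listed miRNAs 2 passed and 99 did not, and the region summed to 81 reads in each library. miR-127-3p had 18 and 15 reads and was not called, and miR-411-5p, which passed only through shPerk cells, had 3 and 10 and was called higher. In the Sfmbt2 list 46 of 80 miRNAs passed, 3 were called higher and 3 lower, and the median was 0.37. With DESeq2 size factors 8 were called higher and 3 lower. miR-466i-5p stood at 34.7 and 7.74 scaled CPM (-2.17, -2.57 to -1.79). Many miRNAs of this list have the same or nearly the same sequence and were listed with equal counts.

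Other miRNAs outside the lists had very large decreases. miR-383-5p had 793 reads in shNC cells and 9 in shPerk cells (-5.95, -7.10 to -5.03), the largest decrease at a mean of at least 10 scaled CPM. miR-129-5p, a neural miRNA with 2 loci, had 3774 and 140 reads (-4.25, -4.51 to -4.01). miR-129-2-3p, which belongs to the locus on chromosome 2, had 140 and 5 reads (-4.28, -5.96 to -3.05). It passed only through shNC cells and so had to differ, and it was picked out after its values had been seen. miR-6540-5p, from an intron of Gap43, had 1484 and 111 reads (-3.24, -3.54 to -2.96), and miR-6540-3p had 70 and 8 (-2.62, -3.90 to -1.58). miR-6540-3p also passed only through shNC cells and so had to differ. miR-301b-5p had 263 and 14 (-3.72, -4.63 to -2.96), and miR-301b-3p had 57 and 13 (-1.63, -2.63 to -0.75).

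The 10 miRNAs with the highest mean level were none of them called. miR-21a-5p, abundant in most cultured cells, had 2971129 reads in shNC cells and 1944882 in shPerk cells (-0.11, -0.12 to -0.11). let-7c-5p had 580935 and 541862 (0.40, 0.39 to 0.40), and let-7i-5p had 471378 and 248333 (-0.43, -0.43 to -0.42). miR-26a-5p had 388015 and 516885 (0.91, 0.90 to 0.92) and miR-7a-5p had 472935 and 194960 (-0.78, -0.79 to -0.77), the ends of the range among the 10. let-7f-5p, miR-199a-3p and miR-199b-3p with equal counts, miR-199a-5p and miR-24-3p lay between 0.16 and 0.56. At such depth even a small difference lies outside the counting error, which is not the error between cultures.

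The lists of common miRNAs showed few calls. In the let-7 list, a family that rises in differentiated cells, 23 of 23 passed and the median was 0.40. The 1 called lower was let-7g-3p, with 20 and 2 reads, which passed only through shNC cells and so had to differ. The lists of miR-30 (11 passed), miR-26 and miR-101 (8), miR-125, miR-99 and miR-100 (11), miR-199 and miR-214 (6) and miR-143 and miR-145 (4) had 0 called. Their medians were 0.35, 0.71, 0.33, 0.24 and -0.15. The miR-29 list had 1 of 7 called higher at a median of 0.21. The miRNAs of the Hox clusters had 1 of 8, at a median of 0.17, which was miR-10a-5p with 202 and 317 reads (1.15, 0.89 to 1.41).

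miRNAs that have been tied to the unfolded protein response did not move as a group. Of 25 listed miRNAs 13 passed, 1 was called higher and 2 lower, and the median was -0.01. miR-708-5p, which PERK signalling can induce, had 11 and 19 reads and was called higher. It passed only through the shPerk library, and its call was lost with library totals and where the whole interval had to lie beyond the fold limit. miR-30c-2-3p, which is induced through PERK and represses Xbp1, had 1152 and 1099 reads (0.43, 0.31 to 0.55) and was not called. miR-455-5p had 1368 and 458 reads (-1.08, -1.24 to -0.93) and was called lower, as was miR-483-3p. miR-204, miR-211, miR-216b, miR-217 and miR-346 gave no member that passed, and the 12 listed miRNAs that stayed out held 18 reads in shNC cells and 15 in shPerk cells.

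The clusters that mark mouse embryonic stem cells were near absent. None of 18 miRNAs of the cluster of miR-290 to miR-295 passed, and they summed to 17 reads in shNC cells and 0 in shPerk cells. None of 10 of the cluster of miR-302 and miR-367 passed, with 0 reads in both libraries. A count of 0 allows up to 3 reads, which is 0.341 CPM of the library total in shPerk cells, so a level above this was not detected.

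The arms of a hairpin are cut from 1 transcript, and for 166 hairpins both arms passed. These are not all separate, since 27 miRNAs in 12 sets were listed with counts equal to those of a relative, and such a count enters once for each hairpin. Pearson's r between the log2 fold changes of the arms was 0.887 and Spearman's rho 0.784, given as a description over hairpins that share both libraries. In 21 hairpins both arms were called higher, in 20 both lower, in 30 only 1 arm was called and in 94 neither. Some of these hairpins have an arm that passed through only 1 library and so had to differ. Examples are miR-741 and miR-335 among the higher, and miR-188 and miR-6540 among the lower. The agreement of the arms is therefore in part set by the filter. Only miR-466i had arms called in opposite directions, at 34.7 and 7.74 scaled CPM for the 5p arm and 1.35 and 4.28 for the 3p arm. With both arms at a mean of at least 10 scaled CPM (95 hairpins), r was 0.929, 10 hairpins had both arms higher, 13 had both lower and 0 were opposite.

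**Figure D4:**
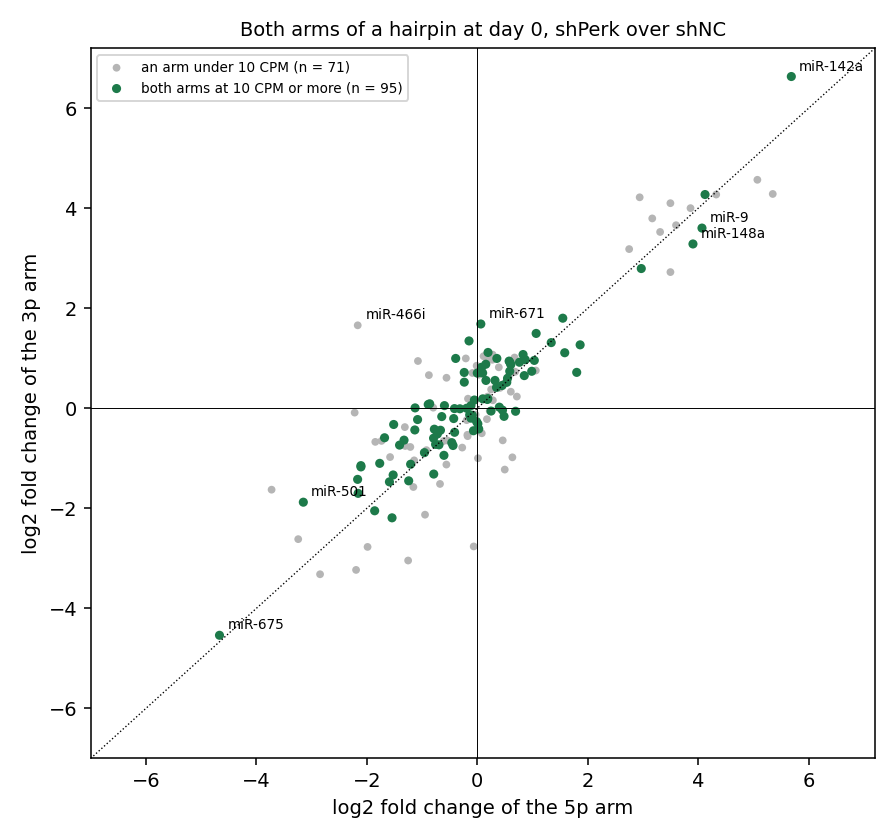
Log2 fold change of the 3p arm against that of the 5p arm at day 0 for the 166 hairpins with both arms past the filter, in green where both arms have a mean of at least 10 scaled CPM (n = 95) and in grey otherwise (n = 71), with a dotted line of equality. miR-142a and miR-675 lie far out along the line, and miR-466i lies off it, above the line on the left.

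Some arms differed in size. miR-671-3p lay at 1.68 (1.55 to 1.82), while miR-671-5p lay at 0.06 (-0.12 to 0.24). miR-574-3p had 694 and 1250 reads (1.35, 1.21 to 1.48), while miR-574-5p lay at -0.15 (-0.35 to 0.04). In all 8 of the 95 hairpins had arms more than 1 apart on the log2 scale. These were picked out after the values had been seen.

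Neighbouring hairpins were compared as well. Clusters were built only from hairpins with a RefSeq entry, and seed families only from miRNAs with a RefSeq sequence, so neither set is complete. The Sfmbt2 miRNAs, with 3 called higher and 3 lower, are in none of the 33 clusters counted here. Of 33 clusters with at least 3 miRNAs that passed, 6 had every member called in the same direction, 21 had every member on the same side of 0, and 0 had members called in opposite directions. No member was called in 16 of the 33. The 6 are the Mir206, Mir500, Mir34c, Mir181a-1, Mir497 and Mir743 clusters described above, and in the last of these 12 of the 25 members passed only through the shPerk library. The Mir181a-1 cluster had a median of 1.68, while that of the paralogous Mir181a-2 cluster was 1.10 with 3 of 4 called, though reads of the shared mature miRNAs count in both. Of 15 seed families with at least 3 members, 7 had a called member, 0 had members called in opposite directions and 3 had a pooled change beyond 1.

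At day 3 the knockdown was measured in another pair of libraries, which shares none with day 0. Of 575 miRNAs tested there, 240 were called (41.7%), 121 higher (21%) and 119 lower (20.7%). Of the 93 miRNAs higher at day 0, 90 were tested at day 3, and 57 were higher and 3 lower there, at a median of 1.87 on the log2 scale. Of the 111 lower, 94 were tested, and 3 were higher and 58 lower, with a median of -1.36. Over the 552 miRNAs tested on both days, Pearson's r was 0.782 and Spearman's rho 0.669, a description over miRNAs of the same stable lines. In all 115 miRNAs were called in the same direction on both days, and 63 at day 0 only.

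**Figure D5:**
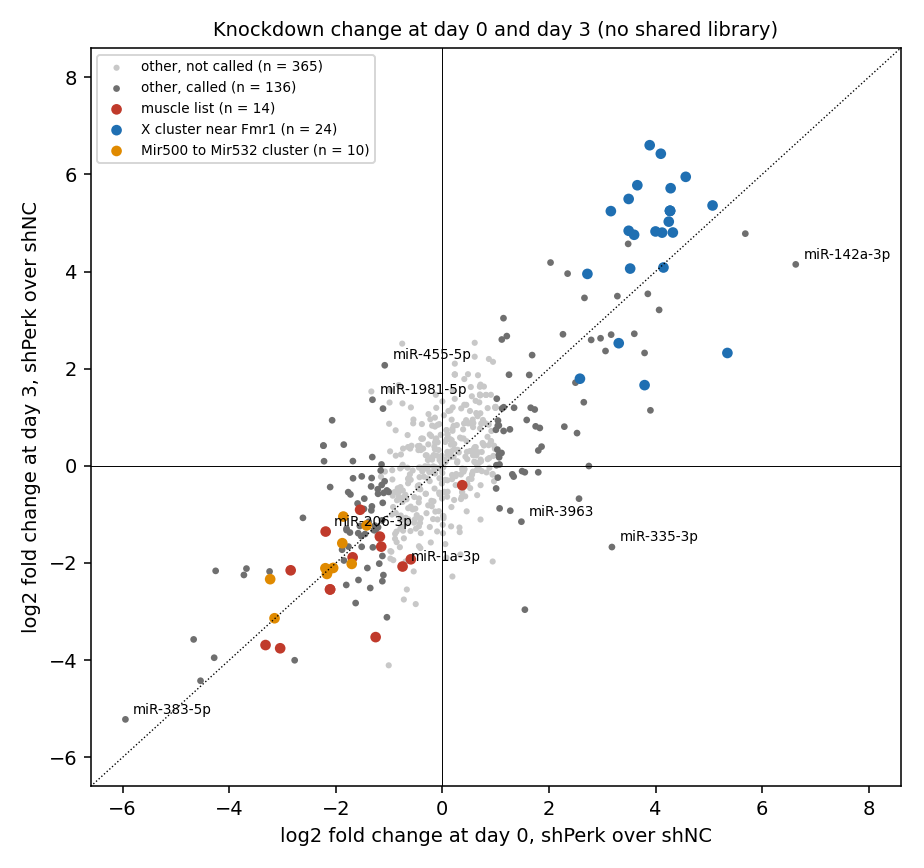
Log2 fold change of shPerk over shNC at day 3 against that at day 0, with a dotted line of equality, for the 549 miRNAs tested on both days with a read in each of the 4 libraries. The X cluster near Fmr1 lies in the upper right, the muscle list except miR-499-5p and the Mir500 to Mir532 cluster in the lower left, and miR-335-3p, miR-3963, miR-455-5p and miR-1981-5p lie on opposite sides of 0 on the 2 days.

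Some groups kept their direction at day 3 and others did not. All 10 miRNAs of the Mir500 to Mir532 cluster were called lower on both days, with medians of -2.10 at day 0 and -2.11 at day 3. All 25 miRNAs of the X cluster near Fmr1 tested there were called higher, with a median of 5.03. miR-881-3p stood at 11.4 and 1104 scaled CPM at day 3, and its log2 fold change was 2.71 higher than at day 0 (95% interval 2.40 to 3.02). miR-206-3p had 802676 and 196072 reads at day 3, and its decrease was smaller there, by 0.84 (0.82 to 0.86). Of the muscle list 13 of 15 were called lower at day 3. Of the miR-34 and miR-449 list 0 were called higher and 2 lower at day 3, and its median went from 1.55 to -0.22. The median of miR-221 and miR-222 went from 1.07 to -0.12 with 0 called, and that of the Mest list from 2.97 to -0.84 with 1 of 2 called lower. miR-221-3p had 52787 and 17946 reads at day 3 and was not called, 1.95 lower on the log2 scale than at day 0 (-1.98 to -1.92). These intervals cover counting error, and whether the days differ as conditions was not tested.

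Cells with ATF4, a factor translated when PERK is active, offer the opposite setting, again in libraries of their own, deposited as RPM, reads scaled to the library total. Of 605 miRNAs listed, 88 were over 2-fold higher (14.5%) and 54 over 2-fold lower (8.93%) with ATF4 than with the vector. Of the 93 miRNAs higher with knockdown at day 0, 74 were listed, and 32 were over 2-fold higher and 3 over 2-fold lower with ATF4. Of the 111 lower, 10 were not listed, and 4 were higher and 19 lower. Over 560 shared miRNAs Pearson's r was 0.441 and Spearman's rho 0.448. miR-148a-3p stood at 580.37 RPM with the vector and 4131.9 RPM with ATF4, and miR-218-5p at 213.02 and 1126.1 RPM. miR-675-5p stood at 16.92 and 4.93 RPM, and miR-383-5p at 85.15 and 16.68 RPM. So these miRNAs lay on the same side of their control with the hairpin against Perk and with ATF4.

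The muscle miRNAs did not follow that pattern as 1 group. miR-133a-3p stood at 69.36 RPM with the vector and 154.02 RPM with ATF4, and miR-206-3p at 2350.57 and 3320.35 RPM, while miR-486a-5p stood at 1028.32 and 452.14 RPM. In P19 cells, a mouse embryonal carcinoma line, the hairpin against Perk gave 123 of 696 miRNAs over 2-fold higher (17.7%) and 123 over 2-fold lower (17.7%). Of the 93 miRNAs higher in C2C12 cells at day 0, 72 were listed in P19 cells, and 25 were higher and 7 lower there. Of the 111 lower, 88 were listed, and 16 were higher and 7 lower. Over 489 shared miRNAs r was 0.126 and rho 0.056. miR-881-3p stood at 7.96 and 44.43 RPM in P19 cells, and miR-9-5p at 3358.62 and 1429.24 RPM.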

How the data were processed

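Total RNA was extracted with TRIzol, and per the study's methods a company ligated linkers, reverse-transcribed, amplified and gel-selected the product and annotated reads with bowtie. Its version, the miRNA release and the rule for reads with several matches are not given in the sources used here. The labels name mm10 and GRCm38. The authors deposited raw counts of reads per mature miRNA for the 4 hairpin libraries of C2C12 cells and RPM values for the ATF4 and P19 pairs, where no value above 0 is under 1 RPM. Their columns of log2 fold changes, p-values and q-values are their own comparisons and were not used.

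Samples were grouped by title, 1 library per group, with 8800977 to 11993448 reads in the hairpin libraries. The log2 fold changes came from edgeR 4.0.16 (TMM factors of 1.05 for shNC and 0.955 for shPerk, prior count 0.125) in R 4.3.3, and calls used the limits stated in the report. With 1 library a side no model with a residual spread could be fitted, so no p-value for the knockdown is given. RPM pairs were scaled with TMM factors, and values of 0 were set to 1 RPM. The call rule was also run on simulated pairs with counting noise only, which says nothing about the spread between cultures. Open to naming were 3 groups of miRNAs with a mean of 10 CPM or more. These were the 10 called higher and the 10 called lower that changed most, all list members, and the 10 with the highest mean. The other arms of those that changed most were open to naming at any level. Not every list member or other arm is named, and some list members under 10 CPM are. Others are said to be named after their values were seen. The miRNAs, lists and clusters were chosen with earlier results of these data known. Alternatives were other scalings (library totals, DESeq2 1.42.0 size factors, upper quartile by edgeR), a prior count of 2, other filters and call rules, edgeR's exact test with an assumed spread, and equal counts collapsed. Tables used Python 3.11.15 with pandas 2.3.3, numpy 2.4.6 and scipy 1.17.1, and figures matplotlib 3.10.9.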

Additional observations from a re-analysis of the deposited data

Results flagged for a closer look

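The knockdown went in opposite directions on the 2 days for 4 miRNAs with a mean of at least 10 scaled CPM at day 0. Each was called in shPerk over shNC cells at day 0 and called the other way at day 3. Intervals are 95% and for counting error, and the difference between the days as conditions was not tested.

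miR-335-3p had 26 and 168 reads in shNC and shPerk cells at day 0 and 225 and 44 at day 3, so its log2 fold change was lower at day 3, with a difference of -4.85 (-5.69 to -4.10). miR-455-5p had 1368 and 458 reads at day 0 and 709 and 1858 at day 3, with a difference of 3.15 (2.95 to 3.35). miR-1981-5p had 1542 and 440 reads and then 638 and 1023, with a difference of 2.67 (2.46 to 2.89). miR-3963 had 631 and 1250 reads and then 1881 and 529, with a difference of -2.63 (-2.83 to -2.44). Below that level, miR-449c-5p, with 25 and 52 reads at day 0 and 26 and 2 at day 3, and miR-704 also changed direction, which makes 6 of 552 miRNAs tested on both days.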

How the results depend on the processing

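No paired analysis was possible because each condition has 1 library and the labels give no replicate numbers, and no library could be left out. The 93 higher and 111 lower calls fell to 40 and 16 when the edgeR exact test assumed that replicates would vary with a coefficient of 0.4, which kept 4 of the 12 muscle calls and 23 of the 27 in the X cluster near Fmr1. The same setting left 0 calls in the lists of miR-34 and miR-449, miR-181, miR-221 and miR-222, miR-23, miR-27 and miR-24, miR-378 and miR-17-92. Of the 3 myoblast markers called lower, 2 stayed called under it. Calls in the Mir500 to Mir532 cluster were not counted apart under this setting. With a filter of at least 10 CPM 47 were higher and 79 lower. With the whole 95% interval beyond the fold limit 67 were higher and 63 lower. Under the other settings 73 to 103 were higher and 85 to 129 lower. Library totals shifted the log2 fold changes by -0.13, giving 73 higher and 129 lower. The median of the unfolded protein response list, of miR-106b-25 and of miR-15, miR-16, miR-195 and miR-497 lay just below 0, and just above it with DESeq2 size factors (0.044, 0.030 and 0.0012). No called miRNA changed sign under another scaling, a prior count of 2 or counts under 3 set at 3 reads. The other scalings could not change a sign, since they shifted values by far less than the fold limit. Reads per library limit only the low counts. The spread between cultures is unknown and was not measured.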

Other observations

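Outside the lists, several miRNAs with a mean of at least 10 scaled CPM were also called lower in shPerk cells at day 0, and they were picked out after their values had been seen. miR-298-5p, from the cluster of Mir296 and Mir298 on chromosome 2, had 7215 reads in shNC cells and 2069 in shPerk cells (log2 fold change -1.31, 95% interval -1.38 to -1.23). miR-296-5p of the same cluster stood at 102 and 46.6 scaled CPM (-1.13, -1.29 to -0.96), while miR-296-3p had 1792 and 1276 reads and was not called. miR-345-3p had 7143 and 2330 reads (-1.12, -1.19 to -1.05), and its other arm, miR-345-5p, had 577 and 177 (-1.21, -1.46 to -0.96). miR-342-3p had 1625 and 331 (-1.80, -1.97 to -1.63) and miR-421-3p had 1982 and 576 (-1.29, -1.42 to -1.15). miR-301a-3p lay at -1.45 (-1.73 to -1.18).

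3 further miRNAs had no read in 1 library at day 0. miR-7676-3p had 0 reads in shNC cells and 18 in shPerk cells, at least 8.47-fold higher with the shNC library set at 3 reads, and 0 and 28 reads at day 3. miR-384-3p had 17 and 0 reads, at least 4.02-fold lower, and miR-6951-5p had 15 and 0, at least 3.54-fold lower.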
